A study of Mus musculus with 4 samples.

Results

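Adventitial fibroblasts are the collagen-making cells of the connective tissue that surrounds the bronchi and the larger vessels of the lung. They were chosen cell by cell from the transcripts of whole-lung single-cell RNA-Seq. A cell qualified when it had 200 to 7500 detected genes and at most 10% mitochondrial unique molecular identifiers (UMIs, each standing for 1 captured transcript), at least 1 UMI of *Col1a2* and UMIs of at least 2 of the 5 adventitial genes *Pi16*, *Dpt*, *Col14a1*, *Adh7* and *Scara5*. It also had to show fewer than 3 of the 5 alveolar fibroblast genes *Col13a1*, *Npnt*, *Tcf21*, *Itga8* and *Ces1d*, and no UMI of the leukocyte gene *Ptprc* or the endothelial gene *Cdh5*. Of 15428 barcodes, 11846 passed the limits on genes and mitochondrial UMIs and 177 met the whole rule. There were 67 such cells in young nonventilated, 42 in young ventilated, 38 in aged nonventilated and 30 in aged ventilated mice.

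Each of the 4 libraries held cells from the left lobe of 3 male C57BL/6 mice that were pooled before sequencing. Young mice were 2 to 3 months old and aged mice 22 months old, and a restricted diet is described for the mice that were kept to that age. Ventilated mice breathed for 3 h at a tidal volume of 20 mL/kg with pure oxygen and no end-expiratory pressure. The volume had a fixed maximum, so that mice above a given weight received less per kg. The mice were under ketamine, medetomidine and buprenorphine and had vascular lines in place. Nonventilated mice received none of these, so ventilation, oxygen, anesthesia and surgery cannot be told apart. With 1 library per group there was no biological replicate, and no test of significance was made. Values are CPM, the UMI counts of a gene scaled to a total of 1000000 and taken from the UMIs summed over the adventitial fibroblasts of a library. Intervals in parentheses after a fold difference are exact 95% intervals that cover counting error only, not the spread between mice or between cells. The adventitial fibroblasts held 885263, 643619, 417819 and 406123 UMIs in the young nonventilated, the young ventilated, the aged nonventilated and the aged ventilated library, and the order of the 4 libraries is the same wherever 4 values are given below. Their median depth was 11974, 14446, 9886 and 14976 UMIs per cell.

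Fibroblasts of the adventitia keep up the fibrillar collagens and proteoglycans of the vessel and airway wall. They also act as sentinels: they release chemokines, interleukin 6 family cytokines and the alarmin interleukin 33, and so call leukocytes to the cuff around the vessel. Alveolar fibroblasts, the more abundant population, lie in the alveolar wall and express lipid handling and elastic fiber genes. Both populations share the genes of collagen synthesis and are told apart by sets of markers, none of which is fully private to either.

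Markers that the rule had not used were looked at first. All 6 pan-fibroblast markers were detected in all 4 libraries, among them the proteoglycan gene *Dcn* at 6566, 3668, 7285 and 6163 CPM. Detection alone says little in sums of this size, since all 9 leukocyte markers were also detected in both nonventilated libraries. A cell was counted as carrying the markers of another type when at least 2 of them had 2 or more UMIs each. By the same count 165 of the 177 cells carried pan-fibroblast markers. Only 2 of the 177 cells carried such leukocyte markers (of 9 listed), 1 carried endothelial markers (of 8), and none those of red cells and platelets or of Schwann cells. The rule had left out cells with *Ptprc* or *Cdh5*, so the low leukocyte and endothelial counts are no independent check. Markers of neighboring mesenchymal cells were more frequent. At least 2 of the 13 alveolar fibroblast markers outside the rule were carried by 117 of the 177 cells (42, 30, 25 and 20 in the 4 libraries). Their summed level was 3760.5, 2004, 2547 and 2135 CPM, led by *Inmt*, a methyltransferase gene, at 1546, 356, 1235 and 495 CPM against 6705, 1927, 6262 and 2714 CPM in alveolar fibroblasts. Of the 177 cells, 42 carried at least 2 of the 6 peribronchial fibroblast markers (24, 4, 11 and 3), 49 of 8 smooth muscle markers (17, 16, 9 and 7), 22 of 9 pericyte markers (12, 2, 6 and 2), 13 of 6 mesothelial markers (8, 4, 0 and 1) and 13 of 9 epithelial markers (5, 4, 1 and 3). The summed level of the peribronchial markers was 2957, 297, 2147 and 485 CPM, and its leading gene was *Hhip*, a Hedgehog-binding protein, at 1375, 77.7, 996 and 286 CPM. The summed mesothelial level was 1723, 1009.9, 35.9 and 131 CPM, with mesothelin (*Msln*) at 698, 544, 0 and 12.3 CPM. In the aged nonventilated library 4 of the 6 mesothelial markers were at 0. The smooth muscle sum was 2299.9, 1158, 1934 and 1106 CPM, and 55.04% and 82.9% of the *Acta2* (smooth muscle actin) UMIs of the nonventilated libraries came from 1 cell each. The pericyte sum was 258, 160, 450 and 259 CPM and the endothelial sum 83.6, 54.4, 55.05 and 39.4 CPM. The peribronchial sum was thus lower in both ventilated libraries and the mesothelial sum lower in both aged libraries, and calls are given below also without such cells.

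**Figure D1:**
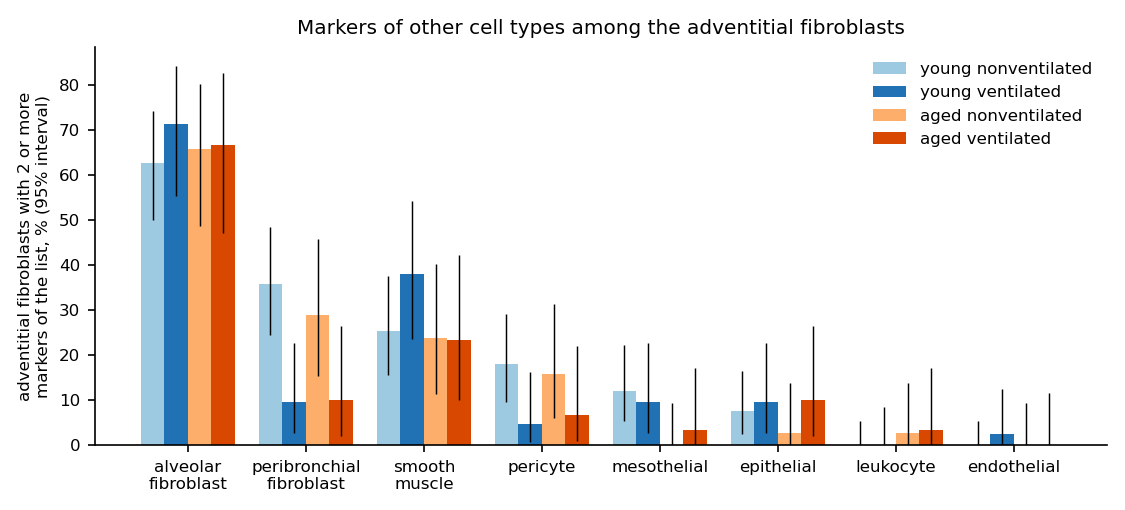
Share of adventitial fibroblasts in each library (percent, with exact 95% binomial intervals) that had 2 or more UMIs each of 2 or more markers of another cell type; bar colors mark the 4 libraries. Alveolar fibroblast markers outside the rule were the most frequent, in 66.1% of the 177 cells. Cells with peribronchial markers made up 35.8% and 28.9% of the cells of the nonventilated libraries and 9.52% and 10.0% of those of the ventilated libraries.

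The cells were next compared by the number of adventitial genes they showed. Exactly 2 of the 5 adventitial genes were detected in 89 of the 177 cells, 3 in 38, 4 in 41 and all 5 in 9. The commonest combination was *Dpt* with *Col14a1* alone, in 59 cells, followed by *Pi16*, *Dpt*, *Col14a1* and *Scara5* together in 32. Of the 42 cells with peribronchial markers 37 had only 2 adventitial genes, as did all 13 cells with mesothelial markers. The 88 cells with 3 or more adventitial genes (31, 17, 22 and 18 in the 4 libraries) carried 42.6 CPM of *Hhip* and 0 CPM of *Msln*, against 1482 and 825 CPM in the 89 cells with 2. *Dcn*, which the rule did not use, was at 9314 CPM in the former and 2370.3 CPM in the latter, and *Clec3b*, which encodes the plasminogen-binding lectin tetranectin, at 1793 and 247 CPM. Just outside the rule, 117 cells with 1 adventitial gene had 731 CPM of *Dcn* and 4327 CPM of *Acta2*. On the alveolar side, 58 members with 2 alveolar genes and 63 excluded cells with 3 had 1246 and 1687 CPM of *Inmt*. By *Dcn*, *Clec3b*, *Hhip* and *Msln* the label thus held better for the cells with 3 or more of the 5 genes. Other markers did not follow. The listed adventitial marker *Igfbp6* was at 1171 CPM in these cells and 1730 CPM in those with 2. The alveolar marker *Inmt* was at 1632 and 340 CPM, and the adventitial marker *C3* at 2332 and 2076 CPM. Results below are given for all 177 cells and, where it matters, for the 88 with 3 or more.

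Free RNA in the droplets set a floor for every gene. As a reference, 3166 endothelial cells of the same libraries (with *Cdh5* and *Pecam1*, without *Ptprc* or *Col1a2*) had median depths of 7946, 7722, 8658 and 9293 UMIs. The airway secretory gene *Scgb1a1*, which fibroblasts do not make, had a UMI in 111 of the 177 fibroblasts, at 138, 132, 119.7 and 66.5 CPM. Once each cell was thinned to 2000 UMIs, *Dcn*, which the rule did not use, was seen in 80.95%, 78.6%, 72.2% and 89.3% of the fibroblasts and in 0.229%, 0.497%, 0.552% and 0.356% of the endothelial cells. No barcode was shared between libraries among the 177 cells, against 20 among all cells kept.

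The adventitial fibroblasts made up 2.28%, 1.26%, 1.26% and 1.18% of the cells kept, with exact 95% binomial intervals of 1.77% to 2.88%, 0.911% to 1.70%, 0.890% to 1.72% and 0.795% to 1.67%. As a share of adventitial plus alveolar fibroblasts, of which the latter were 311, 332, 283 and 234 by the mirrored rule, they were 17.7%, 11.2%, 11.8% and 11.4%. The mirrored rule asked for at least 3 alveolar and fewer than 2 adventitial genes, with the same other limits. Cells with at least 2 adventitial and at least 3 alveolar genes were in neither set. Of 668 *Col1a2* cells with at least 2 adventitial genes, only 201 had fewer than 3 alveolar genes. *Dpt* had a UMI in 72.0%, 79.8%, 70.0% and 67.1% of the alveolar fibroblasts. The shares were not read as a change in cell number, since the genes of the rule themselves stood at different levels in the libraries. *Pi16* was at 252, 162, 144 and 148 CPM, *Dpt* at 678, 371, 859 and 404 CPM, *Col14a1* at 479, 221, 404 and 204 CPM and *Scara5* at 129.9, 54.4, 285 and 71.4 CPM. *Dpt*, *Col14a1* and *Scara5* were thus lower in each ventilated library than in the nonventilated library of the same age. With the rule applied after thinning every cell to 2000 UMIs, 49, 14, 34 and 18 cells qualified, of which 32, 7, 16 and 10 were among the 177.

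Set beside the 1160 alveolar fibroblasts of the same libraries, the adventitial fibroblasts had higher levels of most listed adventitial markers. This contrast is the one the rule itself drew, so it is a description. Of 4040 genes with enough UMIs, 192 (4.75%) were at least 2-fold higher in the adventitial cells in all 4 libraries and 173 (4.28%) at least 2-fold lower. Of 20 further adventitial markers with enough UMIs (of 22 listed), 18 were higher in all 4 libraries and 12 at least 2-fold so. Markers of other cells were higher too. At least 2-fold higher in all 4 libraries were 4 of 5 peribronchial and 3 of 5 mesothelial markers with enough UMIs. The excess over alveolar fibroblasts was thus not particular to adventitial markers. Ranked by the smallest of the 4 within-library ratios, the top 12 genes held, besides genes of the rule and *Kctd16*, the proteoglycan lumican (*Lum*, mean of the 4 libraries 263 against 0.761 CPM), pigment epithelium-derived factor (*Serpinf1*, 427 against 3.11 CPM), the nucleotide-splitting ectoenzyme *Entpd2* (109 against 2.03 CPM), the noncoding RNA *Meg3* (392 against 6.81 CPM), the stem cell antigen gene *Ly6a* (676 against 15.5 CPM), the TGF-beta-induced matrix protein *Tgfbi* (153 against 2.31 CPM) and *Dcn* (5921 against 151 CPM). Among the listed adventitial markers, the eosinophil chemokine *Ccl11* averaged 986 against 24.2 CPM, and *Il33* 316 against 14.7 CPM. *Wt1*, a transcription factor of mesothelium, was also among the top 12, at 67.4 against 0 CPM, and in the aged libraries all its UMIs came from 1 cell each.

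Some listed markers did not separate the 2 populations. *Pcolce2*, which enhances procollagen processing, was lower in the adventitial cells in all 4 libraries, with log2 ratios from -1.14 to -0.88. The actin-severing protein gelsolin (*Gsn*) averaged 12208 CPM in the adventitial and 9925 CPM in the alveolar cells, with log2 ratios from 0.18 to 0.41. On the alveolar side, 10 of 11 further markers with enough UMIs were at least 2-fold lower in the adventitial cells in all 4 libraries. The amino acid transporter gene *Slc7a10* was at 0 UMIs in the adventitial cells and averaged 104 CPM in alveolar fibroblasts, and the actin-binding gene *Nebl* averaged 44.2 against 1337 CPM. The exception was the glypican *Gpc3*, with log2 ratios from -0.64 to 1.42.

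**Figure D2:**
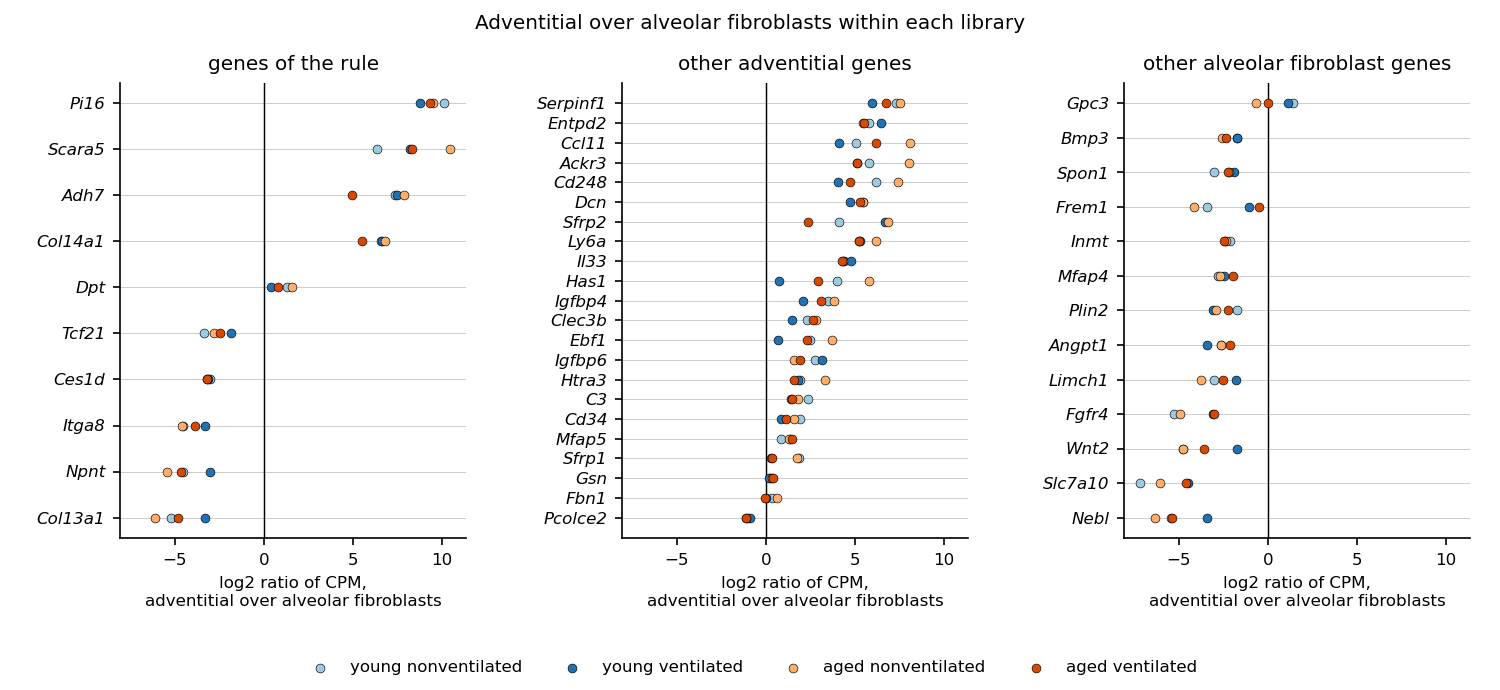
Log2 ratio of CPM in adventitial over alveolar fibroblasts within each library (horizontal axis, 1 point per library) for the genes of the rule, 22 other adventitial markers and 13 other alveolar fibroblast markers. 18 of the adventitial markers with enough UMIs lay to the right of 0 in all 4 libraries, *Pcolce2* lay to the left, and 10 of the alveolar markers lay at least 1 log2 unit to the left.

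The first comparison was ventilated against nonventilated mice at each age. A gene was called when its level differed at least 2-fold, its mean level was at least 50 CPM, 1 of the libraries had at least 20 UMIs, the counting interval of the ratio left out 1, and at least 5 cells of the higher library had a UMI. In young mice 478 of 3637 genes (13.1%) were called higher after ventilation and 443 (12.2%) lower. In aged mice 348 of 3441 (10.1%) were higher and 395 (11.5%) lower. Under median-of-ratios scaling, which moved the median of all genes in young mice by 0.12 log2 units, the share of higher genes among those called in young mice went from 51.9% to 62.4%. With a floor of 20 CPM it was 45.5% and with no floor 39.8%, so the balance turned with the filter. In aged mice the share ran from 39.3% after thinning to 54.5% without cells of 7 other types. When the cell with most UMIs of each gene in the higher library was left out, 693 of 921 calls in young and 448 of 743 in aged mice stayed, as did 670 and 521 among the cells with 3 or more adventitial genes. Of 3118 genes with enough UMIs at both ages, 170 were called higher at both, which is 42.1% of those called higher in young and 56.3% of those in aged mice. Another 170 were called lower at both, 47.6% and 50.3% of the called genes, and 13 were called in opposite directions. The 2 ventilation comparisons share no library.

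**Figure D3:**
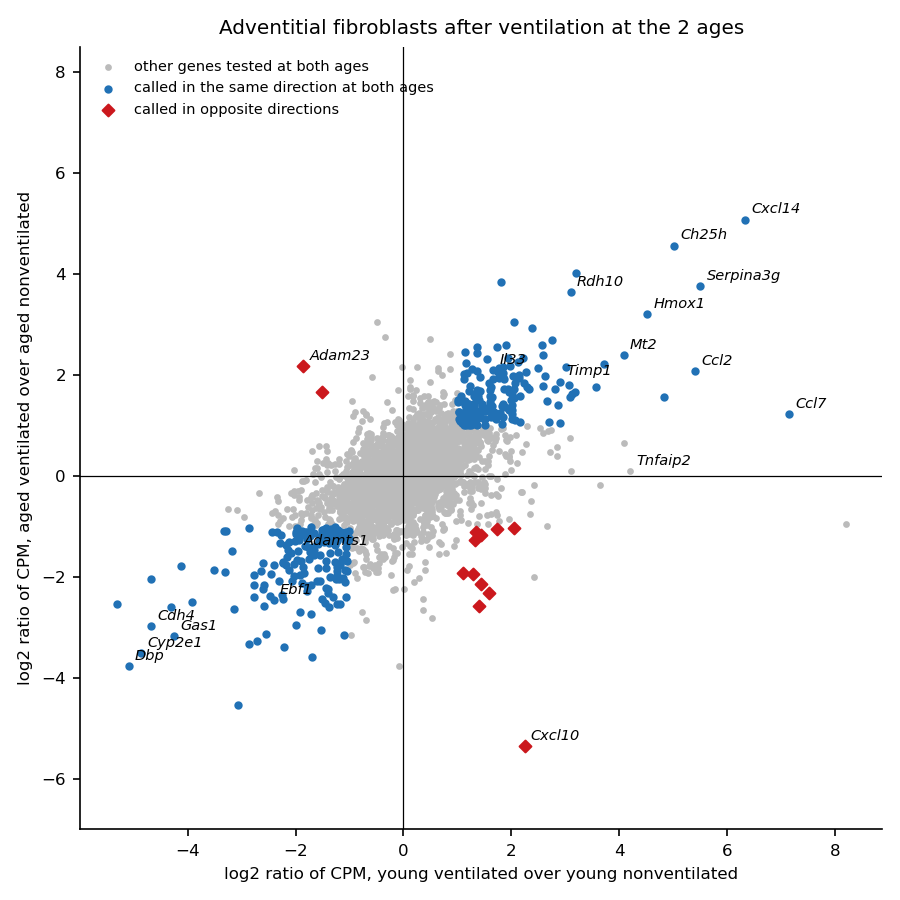
Log2 ratio of ventilated over nonventilated CPM in young (horizontal) and aged (vertical) adventitial fibroblasts; each point is 1 of 3118 genes. Blue points are the 340 genes called in the same direction at both ages, with *Cxcl14* and *Ch25h* at the far upper right, and red diamonds the 13 called in opposite directions.

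The gene with the largest difference shared by both ages was *Cxcl14*, which encodes a chemokine for monocytes and dendritic cells. Its level was 12.4 CPM in young nonventilated, 1098 CPM in young ventilated, 47.9 CPM in aged nonventilated and 1699 CPM in aged ventilated. Both ventilated libraries were far above both nonventilated libraries, 88.4-fold higher (49.1 to 178) in young and 35.5-fold higher (22.8 to 58.5) in aged mice. The gene had a UMI in 5 of 67 and 8 of 38 nonventilated and 21 of 42 and 12 of 30 ventilated cells, and after thinning in 6.35%, 38.1%, 2.78% and 39.3% of fibroblasts against 0.458%, 1.24%, 0.414% and 0% of endothelial cells. Alveolar fibroblasts carried 543, 1566, 454 and 1211 CPM, so that the 2 populations were far apart without ventilation and close after it. On the log2 scale the ventilation ratio of the adventitial cells exceeded that of alveolar fibroblasts by 4.81 (3.99 to 5.64) in young and 3.67 (3.04 to 4.30) in aged mice. *Ch25h* followed, the enzyme that makes the oxysterol 25-hydroxycholesterol. It stood at 12.4, 438, 16.8 and 451 CPM, 35.3-fold higher (19.4 to 71.4) after ventilation in young and 26.9-fold higher (12.8 to 67.8) in aged mice, and endothelial cells had 29.2, 102, 34.1 and 179 CPM. *Serpina3g*, an inhibitor of lysosomal proteases, was at 2.26, 152, 9.57 and 160.1 CPM, but after thinning it was seen in fewer fibroblasts (0%, 14.3%, 2.78% and 10.7%) than endothelial cells (3.44%, 30.6%, 4.28% and 34.9%), so its UMIs were not read as expression by the fibroblasts.

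The promoter windows of these 3 genes, from 250 bases before to 50 bases after the start that RefSeq annotates on GRCm38 (mm10), are shown because they lie next to the 3 genes with the largest difference shared by both ages. Letters are 5′ to 3′ on the gene's strand, and capitals mark a match to a searched motif.
Cxcl14 (chr13:56296502-56296801, minus strand): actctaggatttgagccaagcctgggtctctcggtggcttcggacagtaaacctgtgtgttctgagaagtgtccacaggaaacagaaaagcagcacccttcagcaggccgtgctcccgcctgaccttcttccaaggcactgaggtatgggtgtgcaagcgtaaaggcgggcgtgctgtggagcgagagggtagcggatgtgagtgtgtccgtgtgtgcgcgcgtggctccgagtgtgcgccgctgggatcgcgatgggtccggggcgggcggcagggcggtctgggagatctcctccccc
Ch25h (chr19:34475099-34475398, minus strand): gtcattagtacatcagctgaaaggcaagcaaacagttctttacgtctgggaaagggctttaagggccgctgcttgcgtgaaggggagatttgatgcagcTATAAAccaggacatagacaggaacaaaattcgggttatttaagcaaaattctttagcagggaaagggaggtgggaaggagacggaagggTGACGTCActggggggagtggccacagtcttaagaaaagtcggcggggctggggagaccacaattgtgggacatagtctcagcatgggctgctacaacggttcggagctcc
Serpina3g (chr12:104235897-104236196, plus strand): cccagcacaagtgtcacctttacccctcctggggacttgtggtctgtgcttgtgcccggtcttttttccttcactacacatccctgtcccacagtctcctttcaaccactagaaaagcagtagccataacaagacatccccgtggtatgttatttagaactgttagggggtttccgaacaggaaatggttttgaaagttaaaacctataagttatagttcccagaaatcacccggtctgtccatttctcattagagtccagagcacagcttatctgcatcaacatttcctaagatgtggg
The window of *Ch25h* held a cAMP response element (TGACGTCA) starting 61 bases before the start and a TATA box (TATAAA) starting 151 bases before it. The other windows held none of the motifs searched, and the 50 bases after the start given for *Serpina3g* were not found in its GENCODE transcripts. Motifs were searched on both strands: AP-1 (TGANTCA), the cAMP element, the antioxidant element (TGACNNNGC), the heat shock element (GAANNTTC or TTCNNGAA), NF-kB (GGGACTTTC or GGAATTTCC), the E-box (CACGTG) and the TATA box. Of the 170 genes higher at both ages, 132 had 154 RefSeq windows. The E-box was in 15.6% of these, 5.56% of 198 windows of genes lower at both ages, 9.72% of 3210 windows of all genes tested at both ages and 7.15% of all 32851 windows. AP-1 was in 9.09%, 6.57%, 5.30% and 7.81% of the same sets, the cAMP element in 3.25%, 1.52%, 3.68% and 1.79%, the antioxidant element in 13.6%, 9.09%, 15.5% and 12.4%, and the heat shock element in 14.3%, 13.1%, 11.7% and 15.1%. NF-kB letters were in 0%, 1.01%, 0.872% and 0.670%, and the TATA box in 11.04%, 12.1%, 9.07% and 13.6%.

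Of the genes of the oxidative stress and metal response with enough UMIs, 8 of 11 were called higher after ventilation and 0 lower in young mice, and in aged mice 6 of 12 and 0, with median log2 ratios of 1.24 and 1.13 against 0.06 and 0.04 over all genes. Over all genes, 13.1% were called higher and 12.2% lower in young and 10.1% higher and 11.5% lower in aged mice. The metallothioneins bind zinc and copper. *Mt1* was at 2278, 19821, 7565 and 23320.5 CPM and *Mt2* at 443, 7540.2, 1371 and 7189.9 CPM. Both stood between the young nonventilated and the ventilated libraries in aged nonventilated mice. *Mt2* was 17.03-fold higher (15.4 to 18.9) after ventilation in young and 5.24-fold higher (4.79 to 5.74) in aged mice. Endothelial cells had 4.06, 425, 9.93 and 746 CPM of *Mt2* and alveolar fibroblasts 175, 5522, 268 and 5367 CPM, so this difference was not confined to the adventitia. Heme oxygenase 1 (*Hmox1*) was at 10.2, 258, 31.1 and 305 CPM, 25.4-fold higher (13.05 to 56.5) and 9.81-fold higher (5.53 to 18.9). Mitochondrial superoxide dismutase (*Sod2*) was at 108, 988, 196 and 630.4 CPM, with the lowest value again in young nonventilated mice. *Gclm*, a subunit of the enzyme that starts glutathione synthesis, was at 51.96, 162, 28.7 and 103 CPM, near the endothelial level of 51.4, 87.00, 44.1 and 79.7 CPM. Of the heat shock genes 3 were called higher and 0 lower of 13 in young, and 3 and 2 of 13 in aged mice, beside 10.1% and 11.5% over all genes in the latter. The mitochondrial chaperones *Hspd1* (74.6, 339, 103 and 315 CPM) and *Hspe1* (115, 242, 156 and 441 CPM) were called higher at both ages, whereas the inducible cytosolic chaperone *Hspa1a* (168, 154, 294 and 101 CPM) was called lower in aged mice.

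Cytokines and chemokines made up the second group. In young mice 12 of 15 with enough UMIs were called higher after ventilation and 1 lower, with a median log2 ratio of 2.60, beside 13.1% and 12.2% over all genes. In aged mice 6 of 14 were higher and 1 lower, with a median of 0.96, beside 10.1% and 11.5%. Among the 88 cells with 3 or more adventitial genes the counts of higher genes were 11 of 13 in young and 5 of 13 in aged mice. Over all genes, 619 of 3303 and 434 of 2812 were called higher in these cells. The monocyte chemokines *Ccl2* and *Ccl7* were at 32.8, 1447, 206 and 877 CPM and 5.65, 962, 165 and 389 CPM. *Ccl2* was 44.2-fold higher (30.5 to 66.3) after ventilation in young and 4.26-fold higher (3.36 to 5.45) in aged mice, but 86.05% and 63.8% of its UMIs in the aged libraries came from 1 cell each. Without the top cell of each library its log2 ratio was 3.33 instead of 2.08 in aged mice. *Ccl7* was 170.3-fold higher (72.6 to 526) in young and 2.36-fold higher (1.76 to 3.17) in aged mice. *Il33*, released by injured cells, was at 109.6, 349.6, 151 and 655 CPM, higher in both ventilated libraries and highest in the aged one. The lymphocyte chemokine *Ccl19* followed the same order at 59.9, 252, 78.98 and 669.7 CPM. The leukemia inhibitory factor gene *Lif* was at 5.65, 281, 2.39 and 46.8 CPM, 49.8-fold higher (20.9 to 155) in young mice. In aged mice its mean was under the 50 CPM that a call required.

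Other mediators followed different orders. The neutrophil chemokine *Cxcl1* was at 236, 1498, 1179.9 and 593 CPM, and young nonventilated mice were the lowest of the 4. *Il6*, which drives the acute phase response, was at 215, 612, 895 and 704 CPM, again with young nonventilated mice lowest. *Ccl11* was at 184, 1119, 943 and 1699 CPM, lowest in young nonventilated and highest in aged ventilated mice, and *Cxcl1*, *Il6* and *Ccl11* were each called higher after ventilation in young but not in aged mice. *Cxcl2*, a second neutrophil chemokine, was far above the other libraries in young ventilated mice, at 1.13, 258, 9.57 and 17.2 CPM, and 49.4% of its UMIs in young ventilated mice came from 1 cell. *Cxcl10*, an interferon-inducible T cell chemokine, was at 56.5, 272, 503 and 9.85 CPM, lowest in aged ventilated mice and called higher in young and lower in aged mice after ventilation. The young call was lost among the cells with 3 or more adventitial genes (log2 ratio 0.16 against 2.25), and thinned endothelial cells showed the gene more often (2.98%, 36.8%, 2.76% and 3.74%) than thinned fibroblasts (9.52%, 19.05%, 22.2% and 7.14%) in young ventilated mice. Of the genes of inflammatory feedback and adhesion, 8 of 17 were called higher and 0 lower in young mice, and 2 and 1 of 17 in aged mice, the latter near or below the 10.1% and 11.5% over all genes. *Ptx3*, a soluble pattern recognition protein, was at 0, 331, 69.4 and 34.5 CPM, at least 97.7-fold higher in young ventilated than in young nonventilated mice. It was seen in 7 of 42 young ventilated cells, 1 of which held 56.3% of the UMIs, and alveolar fibroblasts had 0, 0.191, 0 and 0 CPM. *Tnfaip2* was at 22.6, 433, 328 and 349.6 CPM and *Tnfaip3*, a brake on NF-kB, at 49.7, 155, 199 and 153 CPM. Both were lowest in young nonventilated mice, and the other 3 libraries lay close together. *Saa3*, an acute phase protein, reached 250.1 CPM in young ventilated mice, 70.2% of it in 1 cell, whereas alveolar fibroblasts reached 4239.8 CPM.

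**Figure D4:**
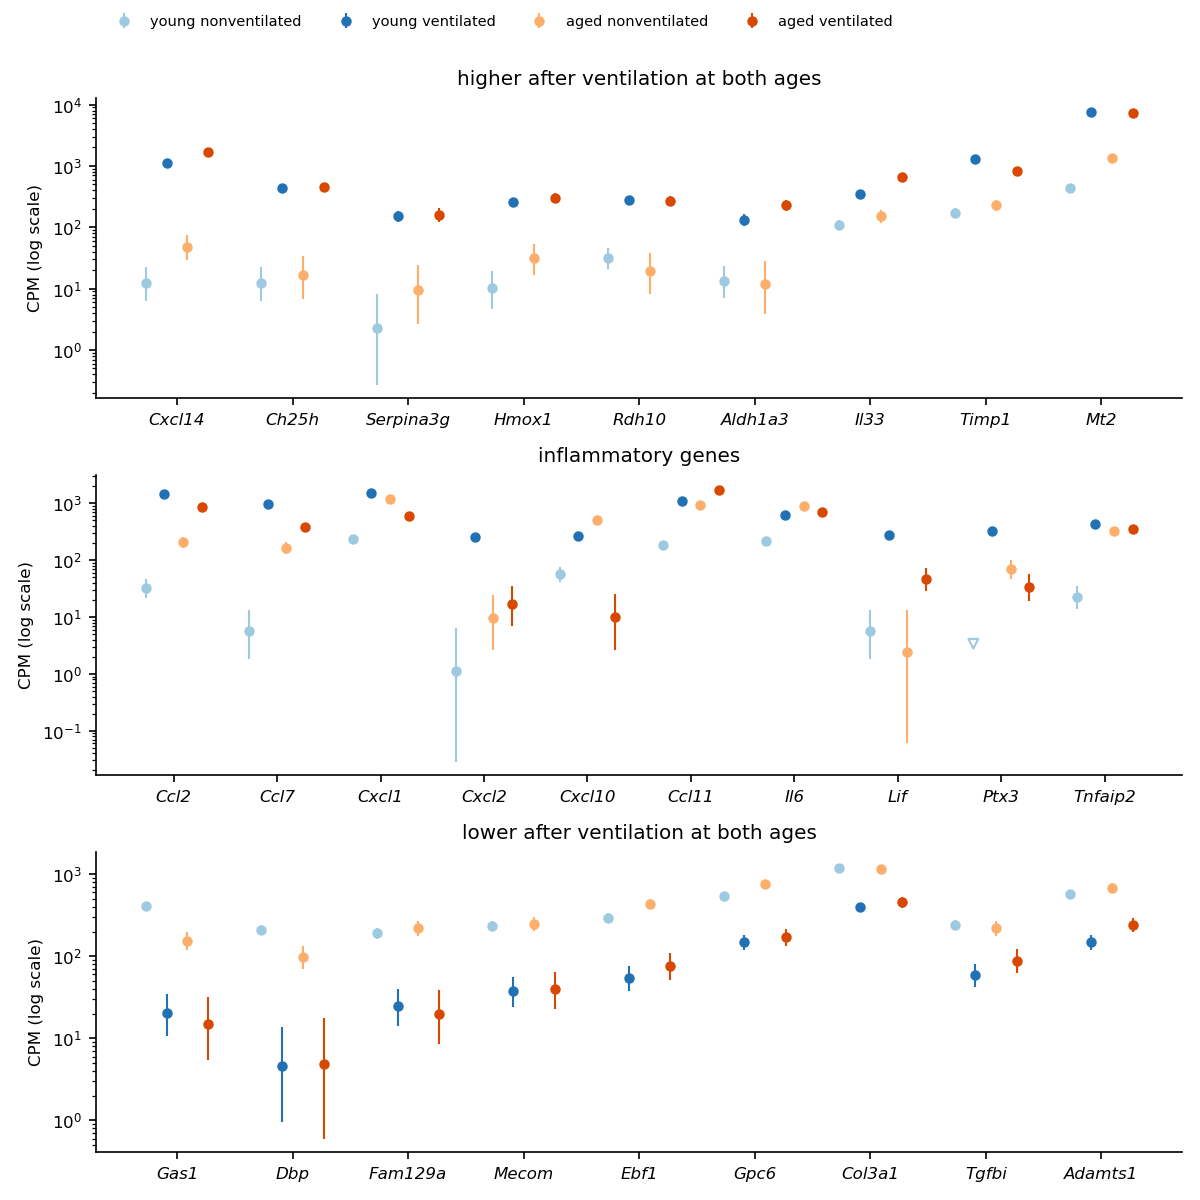
CPM (log axis) in each library for genes higher after ventilation at both ages, inflammatory genes and genes lower at both ages; bars are exact 95% Poisson intervals, which cover counting error only, and an open triangle marks the level of 3 UMIs where no UMI was seen. *Cxcl1*, *Il6*, *Ccl11* and *Tnfaip2* were lowest in young nonventilated mice, and *Ptx3* and *Lif* were highest in young ventilated mice.

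Further lists are given beside the shares over all genes. These were 13.1% higher and 12.2% lower in young, and 10.1% higher and 11.5% lower in aged mice. The stretch-related list held YAP targets and other genes, among them the channel genes *Piezo1* and *Piezo2*. Of its genes, 3 of 10 were called higher and 1 lower in young mice, and 0 and 2 of 9 in aged mice. Thrombospondin 1 (*Thbs1*), which releases TGF-beta from its latent form, was at 726, 4784, 1254 and 1751 CPM, 6.59-fold higher (6.05 to 7.18) in young mice. *Ccn2*, a matricellular protein, was at 268, 757, 242 and 222 CPM, called higher in young mice. Of TGF-beta and BMP genes, 3 were higher and 2 lower of 12 in young, and 1 and 3 of 11 in aged mice. Follistatin (*Fst*), which traps activin, was at 14.7, 452, 33.5 and 103 CPM, higher at both ages. Of growth factor and Wnt genes, 2 and 1 of 9 were called higher and lower in young, and 1 and 5 of 11 in aged mice. The fibroblast mitogen *Fgf2* was at 57.6, 390, 40.7 and 78.8 CPM. The EGF receptor ligand *Ereg* was at 6.78, 301, 0 and 49.2 CPM. Both were highest in young ventilated mice, and 80.0% of the *Ereg* UMIs in aged ventilated mice came from 1 cell. Of the retinoid genes, 2 were called higher and 4 lower of 9 in young, and 2 and 0 of 7 in aged mice. The enzymes for both steps from retinol to retinoic acid were called higher at both ages: *Rdh10* was at 31.6, 279.7, 19.1 and 266 CPM and *Aldh1a3* at 13.6, 134, 11.97 and 231 CPM. *Rdh10* was 8.84-fold higher (5.92 to 13.7) in young and 13.9-fold higher (6.80 to 32.99) in aged mice, and alveolar fibroblasts had 9.92, 75.1, 16.1 and 24.99 CPM. *Adh7*, a gene of the rule, is counted among the retinoid genes. The alcohol dehydrogenase gene *Adh1* (241, 29.5, 158 and 88.6 CPM) was called lower in young mice.

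Collagen and proteoglycan genes were called lower after ventilation more often than higher. Over all genes, 12.2% were called lower and 13.1% higher in young, and 11.5% lower and 10.1% higher in aged mice. Of the collagens, 4 of 13 were called lower and 0 higher in young mice, and 4 and 2 of 12 in aged mice. Their median log2 ratios were -0.46 and -0.64. The fibrillar collagen *Col3a1* was at 1203, 399, 1154 and 453 CPM, lower in both ventilated libraries: 3.01-fold lower (2.63 to 3.47) in young and 2.55-fold lower (2.14 to 3.03) in aged mice. *Col1a1* was at 844, 323, 732 and 456 CPM, called lower in young mice. *Col1a2*, which is counted among the collagens called lower in young mice but was used by the rule, was at 1734, 531, 1403 and 970.1 CPM. The basement membrane collagens *Col4a1* (368, 573, 349 and 771 CPM) and *Col4a2* (185, 245, 132 and 342 CPM) were called higher in aged mice, but endothelial cells, which make basement membrane, had 576, 1171, 554 and 1226 CPM of *Col4a1*. Of the proteoglycan and hyaluronan genes, 4 of 13 were lower and 1 higher in young, and 3 and 0 of 13 in aged mice. *Gpc6*, a cell surface heparan sulfate proteoglycan, was at 549, 148, 754 and 172 CPM. Osteoglycin (*Ogn*), a small proteoglycan of collagen fibrils, was at 1017, 360.5, 1053 and 497 CPM. Both were lower in each ventilated library than in either nonventilated library. Elastic fiber genes gave 3 lower and 1 higher of 13 in young mice and 1 and 1 of 14 in aged mice, and *Emilin1*, an elastic fiber glycoprotein at 38.4, 141, 52.7 and 244 CPM, was the gene called higher at both ages. Among proteases and inhibitors, 5 were higher and 4 lower of 14 in young, and 3 and 4 of 16 in aged mice. The metalloprotease inhibitor *Timp1* was at 173, 1297, 227 and 837 CPM, higher at both ages. The protease *Adamts1* was at 578, 148, 689 and 244 CPM, lower at both, and its ventilated levels were below those of endothelial cells (409.7, 364, 465 and 439 CPM). *Tgfbi*, a matrix protein induced by TGF-beta, was at 243, 59.04, 220.2 and 88.6 CPM.

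Among the genes that were lower at both ages by the widest margin, *Gas1*, a Hedgehog co-receptor linked to growth arrest, was at 412, 20.2, 153 and 14.8 CPM. It was 20.4-fold lower (11.8 to 38.7) in young and 10.4-fold lower (4.51 to 29.3) in aged mice. *Dbp*, an output gene of the circadian clock, was at 211, 4.66, 98.1 and 4.92 CPM, and no thinned cell of either ventilated library showed it. Of the clock genes 4 of 8 were called lower and 1 higher in young mice and 2 and 0 of 6 in aged mice. The shares over all genes were 12.2% lower and 13.1% higher in young, and 11.5% lower and 10.1% higher in aged mice. The hour at which lungs were taken is not given in the sources used here. *Fam129a* (192, 24.9, 220.2 and 19.7 CPM), the transcription factor gene *Mecom* (233, 37.3, 247 and 39.4 CPM) and *Ebf1* (295, 54.4, 433 and 76.3 CPM), a transcription factor of mesenchymal and B cells, were each lower in both ventilated libraries. *Ebf1* was 5.42-fold lower (3.80 to 7.95) in young and 5.68-fold lower (3.86 to 8.60) in aged mice, down to the endothelial level of 82.99, 62.2, 92.2 and 54.1 CPM. Among the 20 further adventitial markers, 8 were called lower and 2 higher in young, and 6 and 1 in aged mice, beside 12.2% lower and 13.1% higher, and 11.5% and 10.1%, over all genes. *Clec3b* was at 1346, 343, 1592 and 781 CPM, lowest in young ventilated mice. *Cd34*, a marker of stromal progenitors and of endothelium, was at 272, 118, 254 and 116 CPM, with the ventilated libraries at or below the endothelial 158, 192, 142 and 155 CPM. In the 88 cells with 3 or more adventitial genes, 11 and 6 of the adventitial markers were called lower, of 21 and 21 with enough UMIs. Over all genes, 521 of 3303 in young and 400 of 2812 in aged mice were called lower in these cells.

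The markers of peribronchial fibroblasts were lower after ventilation. All 5 of them with enough UMIs in young and all 4 in aged mice were called lower, beside 12.2% and 11.5% over all genes. Cells with at least 2 of these markers, which are counted by the same genes, went from 24 to 4 in young and from 11 to 3 in aged mice. *Hhip* was 17.7-fold lower (13.3 to 23.98) in young and 3.49-fold lower (2.83 to 4.32) in aged mice. In the 88 cells with 3 or more adventitial genes its log2 ratio was -1.56 in young and turned to 0.69, not called, in aged mice. The cadherin gene *Cdh4*, another of these markers, was at 515, 18.6, 249 and 29.5 CPM, and in the 88 cells it was called at neither age, with log2 ratios of -0.59 and -1.63. The cytochrome gene *Cyp2e1* was at 134, 3.11, 223 and 17.2 CPM and left no more than 3 UMIs in either library among the 88 cells with 3 or more adventitial genes. Over all genes, 745 of 921 calls in young and 595 of 743 in aged mice stayed without the cells that had peribronchial markers.

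Further single genes were called higher at both ages. The spermidine synthase gene *Srm* was at 37.3, 134, 11.97 and 204 CPM. *Mrto4*, a ribosome assembly factor, was at 14.7, 106, 14.4 and 106 CPM, and *Gar1*, a small nucleolar ribonucleoprotein, at 18.1, 113, 14.4 and 86.2 CPM. In all 3 both ventilated libraries were above both nonventilated ones, and endothelial cells had 14.5, 25.9, 13.6 and 26.9 CPM of *Mrto4*. The other pathway lists are given beside the shares over all genes, 13.1% higher and 12.2% lower in young and 10.1% higher and 11.5% lower in aged mice. Complement gave 0 higher and 0 lower of 9 in young and 2 higher and 0 lower of 10 in aged mice, interferon-inducible genes 2 higher and 0 lower of 8 and 2 higher and 2 lower of 9, MHC class I 0 higher and 0 lower of 7 and 0 higher and 2 lower of 8, and glucocorticoid response genes 3 higher and 1 lower of 10 and 2 higher and 0 lower of 11. Immediate early genes, which respond within minutes and also to tissue dissociation, gave 2 higher and 1 lower of 23 in young and 0 higher and 4 lower of 22 in aged mice. Collagen processing and crosslinking gave 1 higher and 1 lower of 8 and 1 higher and 0 lower of 8, the integrated stress response 0 higher and 1 lower of 5 and 0 higher and 1 lower of 6, p53 and senescence 0 higher and 1 lower of 5 and 0 higher and 0 lower of 4, and lipid and fatty acid genes 0 higher and 0 lower of 3 and 1 higher and 1 lower of 5. Complement *C3*, at 2132, 1969, 2566 and 2361 CPM, was called in none of the comparisons.

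The second comparison was aged against young mice. It called fewer genes than ventilation did. Without ventilation 173 of 3534 genes (4.9%) were higher and 148 (4.19%) lower in aged mice, and after ventilation 167 of 3517 (4.75%) were higher and 194 (5.52%) lower. The age calls depended on which cells were kept. When the cell with most UMIs of each gene in the higher library was left out, 161 of 321 and 178 of 361 calls stayed. Among the cells with 3 or more adventitial genes 136 and 171 of these 321 and 361 calls stayed, and without cells of 7 other types 116 and 182, with fewer cells and UMIs in each library. Without ventilation the lower genes numbered 83 beside 151 higher ones once cells with mesothelial markers were left out, and 91 beside 165 with at most 5000 genes per cell. Over the alternatives the share of higher genes among those called ran from 33.5% to 64.7%, so no balance of higher and lower genes was read from it. These 2 comparisons share no library with each other, but each shares its libraries with the ventilation comparisons.

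Without ventilation, 5 of 11 cytokine and chemokine genes were called higher and 0 lower in the aged fibroblasts, with a median log2 ratio of 2.32. Over all genes, 4.9% were called higher and 4.19% lower in this comparison. Of the inflammatory feedback and adhesion genes 7 of 14 were called higher and 0 lower. Among the cells with 3 or more adventitial genes the counts of higher genes were 3 of 12 and 7 of 15, beside 208 of 3214 over all genes. *Cxcl1* was 4.998-fold higher (4.24 to 5.90), *Il6* 4.17-fold higher (3.49 to 4.99), *Ccl11* 5.12-fold higher (4.26 to 6.19) and *Tnfaip2* 14.5-fold higher (9.04 to 24.5). The interleukin 1 receptor gene *Il1r1* was at 163, 214, 534 and 310.3 CPM, highest in aged nonventilated mice. The prostaglandin synthase gene *Ptgs2* was at 162, 465, 572 and 625 CPM, lowest in young nonventilated mice. *Myc*, a transcription factor that drives growth, was at 48.6, 96.3, 237 and 126 CPM. *Tnfaip6*, which modifies hyaluronan, was at 434, 314, 1472 and 1086 CPM and was called higher in aged mice with and without ventilation. The aggrecanase *Adamts4* was at 61.00, 209.8, 414 and 222 CPM. The interferon-inducible gene *Ifi207* differed with age in both conditions, at 12.4, 4.66, 263 and 244 CPM: it was 21.2-fold higher (11.4 to 43.7) without and 52.3-fold higher (17.4 to 258) after ventilation. Endothelial cells had 2.96, 14.5, 7.75 and 4.90 CPM of it and alveolar fibroblasts 0.461, 1.15, 1.43 and 16.9 CPM.

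Among the genes lower in aged nonventilated mice, the mesothelial ones had the largest ratios. All 6 mesothelial markers were called lower, beside 4.19% over all genes. *Msln*, *Upk3b*, *Muc16*, *Gpm6a* and *Slurp1* were at 0 UMIs in the aged nonventilated library. The young nonventilated library held 8 cells with mesothelial markers and the aged one 0. *Msln* was at least 97.2-fold lower in all cells, and none of its UMIs was in the 88 cells with 3 or more adventitial genes. The zinc finger factor *Klf2*, which responds to flow in vessels, was lower with and without those cells. It was at 655, 315, 232 and 169.9 CPM, 2.82-fold lower (2.27 to 3.54) in aged nonventilated mice, and its log2 ratio was -1.42 without the cells with mesothelial markers and -1.64 in the cells with 3 or more adventitial genes. Endothelial cells, which are known to express it, had 1541, 283, 1121 and 371 CPM. The clock output gene *Dbp* and *Gas1* were also lower in aged nonventilated mice, 2.15-fold lower (1.53 to 3.10) and 2.69-fold lower (2.06 to 3.57).

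After ventilation, cytokine and chemokine genes were called lower in aged mice more often than higher. Of 16 cytokines and chemokines 2 were called higher and 5 lower in aged mice, and of 19 feedback and adhesion genes 0 and 2. *Cxcl1* was 2.52-fold lower (2.19 to 2.92), *Lif* 6.01-fold lower (3.74 to 10.2) and *Ptx3* 9.60-fold lower (5.60 to 17.9). Of the stretch-related genes 6 of 9 were called lower in aged ventilated mice and 0 higher, against 5.52% and 4.75% over all genes. Their median log2 ratio was -1.34. Of the 6, *Piezo1* and *Crim1* were also called lower with age without ventilation. There the list gave 2 lower and 0 higher of 10, beside 4.19% and 4.9% over all genes. After ventilation, among the cells with 3 or more adventitial genes, 5 of 7 genes of the list were called lower, beside 222 of 2761 over all genes. The weights of the pooled mice were not analysed here, and since the tidal volume had a maximum, age and the volume received per kg cannot be told apart. *Thbs1* was 2.73-fold lower (2.52 to 2.97), *Ccn2* 3.41-fold lower (2.72 to 4.32) and *Ccn1*, at 1106, 1149.8, 945 and 419 CPM, 2.75-fold lower (2.32 to 3.26). Of TGF-beta and BMP genes 4 of 12 were lower and 1 higher. *Fst* was 4.37-fold lower (3.16 to 6.20), *Fgf2* 4.95-fold lower (3.42 to 7.39) and *Ereg* 6.12-fold lower (3.86 to 10.2). Versican (*Vcan*), a hyaluronan-binding proteoglycan, was at 96.02, 323, 220.2 and 128 CPM, highest in young ventilated mice. Tenascin C (*Tnc*), a matrix protein of wounds, was at 15.8, 267, 26.3 and 2.46 CPM, 109-fold lower (19.2 to 4311) in aged ventilated mice. The activin subunit gene *Inhba* was at 20.3, 141, 21.5 and 4.92 CPM, 28.7-fold lower (7.72 to 241). Both were highest in young ventilated mice. The complement component *C7* was at 348, 182, 574 and 914 CPM, 5.03-fold higher (4.07 to 6.24) in aged ventilated mice. The cytoskeletal adaptor gene *Frmd5* was at 22.6, 139.8, 124 and 763 CPM, 5.46-fold higher (4.30 to 6.98), and was called higher in all 4 comparisons. The opioid precursor gene *Penk* was at 84.7, 15.5, 199 and 140.4 CPM, lowest in young ventilated mice. *Cd74*, the invariant chain of antigen presentation, was at 9.04, 4.66, 16.8 and 591 CPM, but endothelial cells had 974, 1207, 1032 and 1329.8 CPM and 1 cell held 97.5% of the UMIs in aged ventilated mice.

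**Figure D5:**
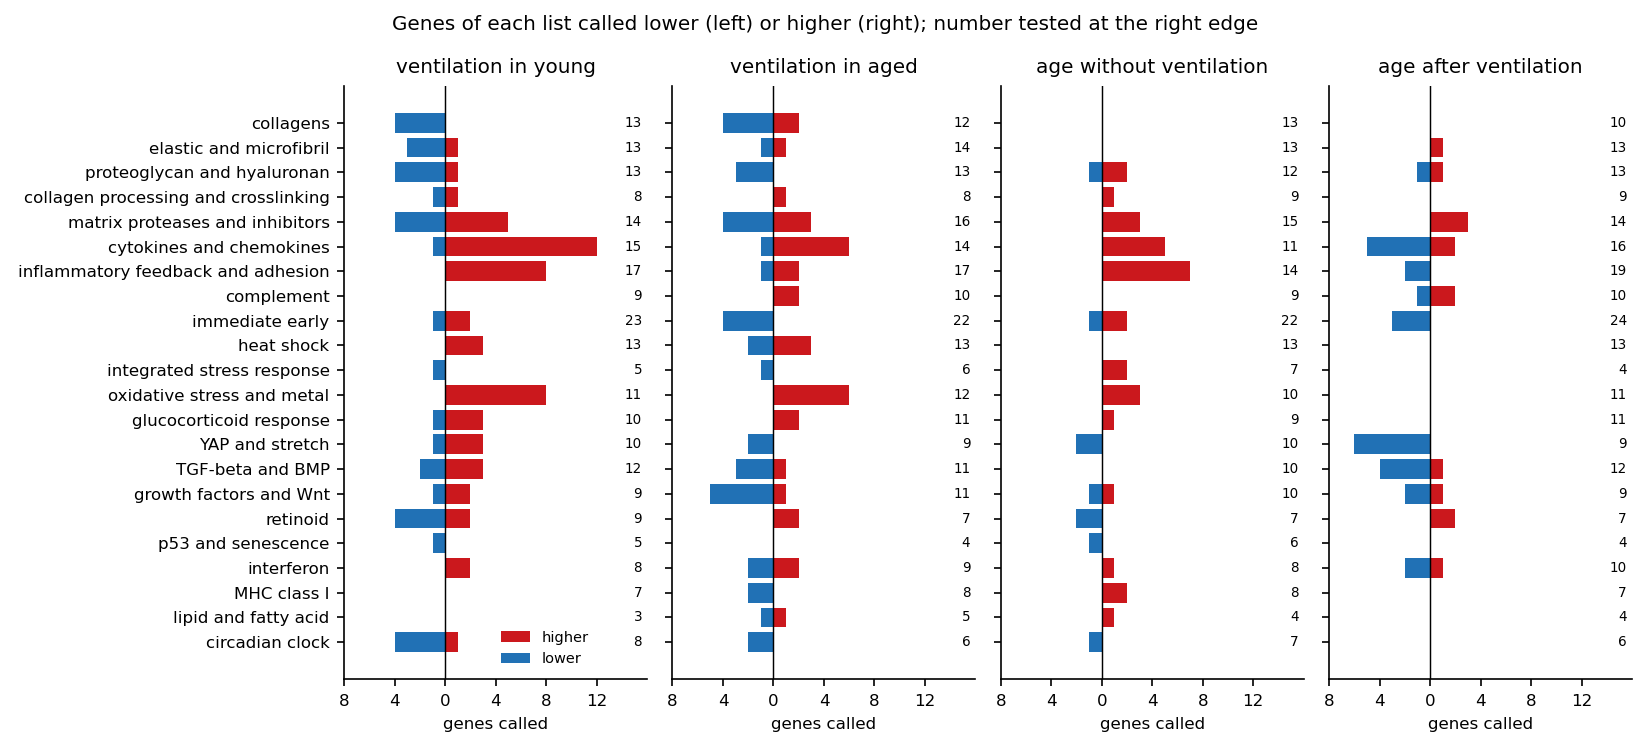
Number of genes of each list called higher (red, to the right) or lower (blue, to the left) in the 4 comparisons; the figure at the right edge of each row is the number of genes with enough UMIs. Cytokines and chemokines were called higher 12 of 15 times in young and 6 of 14 times in aged mice after ventilation. Stretch-related genes were called lower 6 of 9 times with age after ventilation. Over all genes, 13.1% and 10.1% were called higher after ventilation, and 5.52% lower with age after ventilation.

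The ventilation ratio was also set against age directly, as the aged log2 ratio minus the young one with a Wald 95% interval for counting error. Of 3571 genes 645 (18.1%) had ratios more than 2-fold apart with an interval that left out 0, 277 of them with the larger ratio in aged and 368 in young mice. The difference was -5.93 (-7.16 to -4.70) for *Ccl7*, -4.10 (-4.83 to -3.38) for *Tnfaip2* and -3.65 (-3.96 to -3.34) for *Cxcl1*. For *Cxcl14* it was -1.26 (-2.30 to -0.23) and for *Ch25h* -0.46 (-1.77 to 0.86), the latter interval holding 0. In the other direction, *Adam23*, an adhesion protein at 83.6, 21.8, 28.7 and 138 CPM, had 4.04 (2.85 to 5.22), although its aged ratio turned to -0.41 in cells with fewer than 2 alveolar genes, and the secreted chaperone clusterin (*Clu*) 3.53 (3.08 to 3.98). Several of the largest differences in that direction were listed mesothelial markers (*Upk3b*, *Upk1b* and *Krt19*), and cells with mesothelial markers numbered 8, 4, 0 and 1. No library was replicated, so the spread of these differences between mice could not be measured.

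Beside alveolar fibroblasts, the ventilation ratio differed more than 2-fold for 496 of 4036 genes (12.3%) in young and 544 of 3708 (14.7%) in aged mice. In 37 genes the adventitial ratio was larger at both ages and in 71 it was smaller. *Ccl2* was among the former, by 1.17 log2 units in young and 2.16 in aged mice, with alveolar levels of 8.08, 157, 71.3 and 67.4 CPM, but the aged value rested on libraries in which 1 cell each held 86.05% and 63.8% of its UMIs. *Hspd1* was another, by 1.82 and 1.37. *Il1r1* was among the latter, by -1.08 and -2.03. The same mice gave both populations, so these values compare cells within 4 libraries and not groups of mice.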

How the data were processed

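The authors deposited raw UMI counts per gene and cell barcode, made from droplet libraries of digested left lobes with Cell Ranger 7.0.0 against mm10 per the labels. No column of another sample was present. From these counts, cells were chosen by the rule given above, and their UMIs were summed per library, scaled to CPM and compared as a log2 ratio with 1 UMI added to each sum and an exact conditional binomial 95% interval. A gene at 0 UMIs was set to a floor of 3 UMIs for a bound on its fold. Intervals cover counting error only, and no replicate existed. Doublets were not called; cells with *Ptprc* or *Cdh5* were left out by the rule, and the upper limit of 5000 genes was an alternative. Cells were thinned to 2000 UMIs (seed 1) to compare shares, leaving out shallower cells: 63, 42, 36 and 28 fibroblasts were used. Named genes were the 8 largest differences each way per comparison that stayed called without their top cell, up to 10 each way shared by both ages, those called in opposite directions, called list members and, per list, the 4 with most CPM. The cells, lists and rules were chosen with earlier results of these data known. Promoter windows came from RefSeq (GRCm38) and gene coordinates from GENCODE on the same build. Scripts were tested on simulated data (Python 3.11.15, numpy 2.4.6, scipy 1.17.1, pandas 2.3.3, matplotlib 3.10.9). Alternatives covered the rule, scaling, filters on CPM, genes and mitochondrial UMIs, thinning and cells with other markers.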

Additional observations from a re-analysis of the deposited data

Results flagged for a closer look

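In 13 genes the ventilation comparison was called in opposite directions at the ages, higher in young and lower in aged mice in 11 and the reverse in 2. With 1 library per group the difference was not tested, and all values are log2 ratios of ventilated over nonventilated CPM. The interferon-inducible chemokine gene *Cxcl10* stood at 2.25 in young and -5.36 in aged mice. Its young value did not hold: it was 0.16 in the cells with 3 or more adventitial genes and -0.66 without cells of 7 other types. The interferon-inducible GTPase *Gbp2* stood at 1.43 in young and -2.15 in aged mice. Endothelin and thrombin receptors were both among these genes: *Ednra* was at 1.11 in young and -1.93 in aged mice and *F2r* at 1.35 in young and -1.12 in aged mice. The actin regulator *Enah* was at 1.73 in young and -1.05 in aged mice. The ubiquitin ligases gave 1.29 in young and -1.94 in aged mice for *Rnf19b*, and 2.04 in young and -1.02 in aged mice for *Rffl*. The other genes that were higher in young and lower in aged mice were *Pitpnc1* (1.59 in young and -2.32 in aged mice), *Rian* (1.40 in young and -2.58 in aged mice), *Chsy3* (1.44 in young and -1.17 in aged mice) and *Nudt4* (1.33 in young and -1.27 in aged mice). *Adam23* was lower in young and higher in aged mice, at -1.86 in young and 2.17 in aged mice, as was *Flrt2*, at -1.52 in young and 1.66 in aged mice. Under the alternatives that gave a value, 0 of the 13 genes were called at both ages throughout and 8 kept opposite signs throughout. Besides *Cxcl10*, the signs were no longer opposite for *Enah*, whose aged value was 0.61 in the cells with 3 or more adventitial genes and 1.01 without cells of 7 other types, for *F2r*, whose aged value was 0.36 after thinning, and, with fewer than 2 alveolar genes, for *Flrt2* at 0.36 in young and *Adam23* at -0.41 in aged mice.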

How the results depend on the processing

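No paired analysis was possible because each group was 1 library of pooled mice, and for the same reason no replicate could be left out. Requiring 3 or more adventitial genes left 88 cells and leaving out cells with markers of 6 other cell types left 100. Applied after thinning, the rule chose 115 cells, of which 32, 7, 16 and 10 in the 4 libraries were among the 177. The called genes, 921, 743, 321 and 361 for ventilation in young, ventilation in aged, age without and age after ventilation, numbered 426, 206, 132 and 159 once every cell was thinned to 2000 UMIs, 1835, 1127, 621 and 676 with a floor of 20 CPM and 2129, 1127, 731 and 693 with no floor on CPM. With each cell weighted equally, age after ventilation gave 572 genes and the median of all genes moved by -0.10 log2 units. Thinning also lowered the genes whose ventilation ratio differed from that of alveolar fibroblasts from 496 to 182 in young and from 544 to 127 in aged mice, with fewer genes above the filters. Of 2813 values of the genes given in the text under 15 alternatives, 17 changed sign. The alternatives with a floor of 20 CPM or none only changed which genes were let in. No ratio could change under them, so their values say nothing on stability. Many of the other values moved in size: with 3 or more adventitial genes 73 results, and after thinning 87, left the counting interval of the reported value without a change of sign. The tally with 3 or more adventitial genes also takes in shares of the cells kept. Of 428 called pairs of a gene named by the rule and a comparison, 367 kept their direction and 90 their call under all 15. The changes of sign for ventilation in young mice were *Cdh4* at 0.61 without cells of 7 other types, *Cxcl10* at -1.58 and -0.66 without cells of 6 and 7 other types, and *Flrt2* at 0.36 with fewer than 2 alveolar genes. In aged mice they were *Adam23* at -0.41 with fewer than 2 alveolar genes, *Enah* at 0.61 with 3 or more adventitial genes and 1.01 without cells of 7 other types, *F2r* at 0.36 after thinning, *Cd74* at -0.85 with 3 or more adventitial genes and -0.45 with at most 5000 genes per cell, and *Hhip* at 0.69 with 3 or more adventitial genes and 0.43 without peribronchial cells, which *Hhip* and *Cdh4* themselves helped to choose. For age without ventilation they were *Cdh4* at 0.23 with 3 or more adventitial genes, 0.86 without peribronchial cells and 2.18 without cells of 7 other types, *Penk* at -0.33 after thinning and *Vcan* at -0.23 with at most 5000 genes per cell. Apart from the cells left out, the cause was not tested. Leaving out mesothelial cells, peribronchial cells or cells of 7 other types was chosen after seeing the data. With 30 to 67 cells per library, a gene carried by a few cells can be called on them alone.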

Other observations

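For age, over all genes 4.9% were called higher and 4.19% lower without and 4.75% and 5.52% after ventilation, and lists of a few genes are given beside these shares as counts. In aged against young nonventilated mice, MHC class I genes gave 2 higher and 0 lower of 8, the integrated stress response 2 higher and 0 lower of 7, oxidative stress and metal genes 3 higher and 0 lower of 10, matrix proteases and inhibitors 3 higher and 0 lower of 15 and retinoid genes 0 higher and 2 lower of 7. Of the latter, *Aldh1a2* had a log2 ratio of -4.99 in all cells and -2.06, no longer called, without cells with mesothelial markers. After ventilation the same lists gave 0 higher and 0 lower of 7, 0 higher and 0 lower of 4, 0 higher and 0 lower of 11, 3 higher and 0 lower of 14 and 2 higher and 0 lower of 7. The neurotrophin receptor gene *Ntrk2* stood at 16.9, 49.7, 158 and 101 CPM and was called higher in aged mice in both conditions, beside 39.4, 9.19, 79.2 and 24.6 CPM in endothelial cells.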
